A study of Sus scrofa with 6 samples.

Results

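Mitochondria keep their own small genome, and nuclear genes encode all the proteins that copy it, transcribe it and handle its RNA. The expression of 10 of these nuclear genes was followed in porcine oocytes, out of the 29861 genes in the deposited expression table. They were taken by name: the replication genes POLG, POLG2, TWNK and SSBP1, the transcription genes POLRMT, TFAM and TFB2M, and the RNA genes TFB1M, LRPPRC and PNPT1. Messenger RNA was sequenced from 6 samples, with 2 samples in each of 3 groups. Control oocytes, from ovaries collected at an abattoir, were matured in vitro at the normal temperature. Heat-stressed oocytes spent 24 h at a raised temperature from the germinal vesicle (GV) stage, and NMN-supplemented oocytes had the same heat stress with nicotinamide mononucleotide, a precursor of NAD+, in the medium. Each sample was a pool of oocytes, no group had NMN without heat, and nothing in the sources used here says that the samples of a group were collected separately, so the P-values measure only the spread between these samples. By the labels the oocytes were at the GV stage, while the methods of the study describe metaphase II oocytes.

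Mitochondrial DNA is copied by the polymerase gamma holoenzyme, in which the catalytic subunit POLG works with its accessory subunit POLG2, behind the helicase Twinkle (TWNK) and on single strands coated by SSBP1. Transcription needs the RNA polymerase POLRMT, the factor TFB2M that opens the promoter and TFAM, which also packs the genome. TFB1M methylates the small ribosomal RNA of mitochondria, LRPPRC stabilizes mitochondrial messenger RNAs, and PNPT1 is an exoribonuclease that degrades RNA inside the organelle. An oocyte holds very many copies of mitochondrial DNA, all of which the embryo inherits.

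The nuclear factors NRF1 and GABP and the factor SP1 are known regulators of such genes, and the bases upstream of the annotated gene starts show how the members differ in the letters these factors recognize. For each member the 250 bases before the gene start in the Sscrofa11.1 build were searched on both strands for GCGCANGCG (NRF1), CCGGAAG (GABP) and GGGCGG (SP1). Among the 20624 protein-coding windows of this length, 6.36% held the NRF1 letters, 7.48% the GABP letters and 44.5% the SP1 letters. Of the 10 members, 1 held the NRF1 letters and 1 the GABP letters, TFB1M in both cases, whereas the SP1 letters were in 5, namely TFAM, TFB1M, TFB2M, SSBP1 and PNPT1. The windows of TFB1M and of the transcription genes TFB2M and TFAM are shown because they hold matches. Those of POLG and POLG2 are shown because these were the most abundant members and hold none. Each runs 5′ to 3′ on the strand of its gene and ends at the base before the gene start, with matches to the searched letters in capitals and no overlap between different motifs.
TFB1M (chr1:11565943-11566192, plus strand): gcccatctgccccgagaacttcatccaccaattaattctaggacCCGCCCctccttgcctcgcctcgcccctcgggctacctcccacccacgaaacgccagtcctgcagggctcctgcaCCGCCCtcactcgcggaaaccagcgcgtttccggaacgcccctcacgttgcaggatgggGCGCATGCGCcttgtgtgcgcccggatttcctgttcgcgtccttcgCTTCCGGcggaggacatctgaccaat
TFB2M (chr10:19046344-19046593, minus strand): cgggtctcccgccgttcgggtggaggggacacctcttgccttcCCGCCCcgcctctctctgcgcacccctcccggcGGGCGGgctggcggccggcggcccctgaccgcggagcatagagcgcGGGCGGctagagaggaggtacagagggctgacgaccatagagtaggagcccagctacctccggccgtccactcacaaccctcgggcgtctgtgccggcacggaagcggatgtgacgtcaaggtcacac
TFAM (chr14:92279732-92279981, minus strand): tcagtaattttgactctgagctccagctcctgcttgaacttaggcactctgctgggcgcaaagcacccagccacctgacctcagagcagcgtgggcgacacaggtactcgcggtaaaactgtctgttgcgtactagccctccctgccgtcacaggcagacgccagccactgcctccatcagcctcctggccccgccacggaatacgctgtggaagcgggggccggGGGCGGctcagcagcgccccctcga
POLG (chr7:54907168-54907417, minus strand): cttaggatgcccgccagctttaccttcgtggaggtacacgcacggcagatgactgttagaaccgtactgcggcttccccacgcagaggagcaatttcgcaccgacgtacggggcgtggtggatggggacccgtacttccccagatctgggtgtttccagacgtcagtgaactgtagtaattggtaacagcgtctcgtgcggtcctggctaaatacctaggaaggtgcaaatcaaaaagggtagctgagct
POLG2 (chr12:14581825-14582074, plus strand): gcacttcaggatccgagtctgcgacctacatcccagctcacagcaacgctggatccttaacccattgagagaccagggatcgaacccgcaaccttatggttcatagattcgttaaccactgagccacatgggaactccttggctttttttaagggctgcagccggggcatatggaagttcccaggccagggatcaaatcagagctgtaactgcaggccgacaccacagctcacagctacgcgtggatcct
In TFB1M the NRF1 letters matched on both strands of the same short run, with first bases 72 and 71 bases before the start, and the GABP letters lay 26 bases before it. TFB2M held 3 matches to the SP1 letters and TFAM held 1. A match or the lack of one describes these letters in these windows only. Neither binding nor whether transcription begins at the annotated starts was measured.

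The expression values are FPKM, fragments scaled by transcript length and by the mapped fragments of the sample, so genes can be compared with each other on a per-length scale. The submitters' processing notes also name Cuffnorm, so the values may carry a further scaling between samples. POLG and POLG2 were the only members with a mean of at least 1 FPKM over the 6 samples, a level that 4713 genes of the table reached. POLG stood between percentiles 89.8 and 92.9 of the genes detected in a sample and POLG2 between 86.4 and 89.4. LRPPRC, TWNK, TFB1M and SSBP1 had means of 0.684, 0.668, 0.542 and 0.136 FPKM, which made 6 members with a mean of at least 0.1 FPKM, as 11651 genes had. POLRMT, TFB2M and TFAM had means of 0.0899, 0.0415 and 0.0347 FPKM, and PNPT1 was listed at 0 in all 6 samples. POLG and POLG2 together made up between 74.9% and 87.0% of the summed FPKM of the 10 members in each sample. FPKM are relative to all fragments of a sample, and each sample was a pool of oocytes. Less of a transcript per oocyte and fewer oocytes that express it therefore cannot be told apart.

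**Figure D1:**
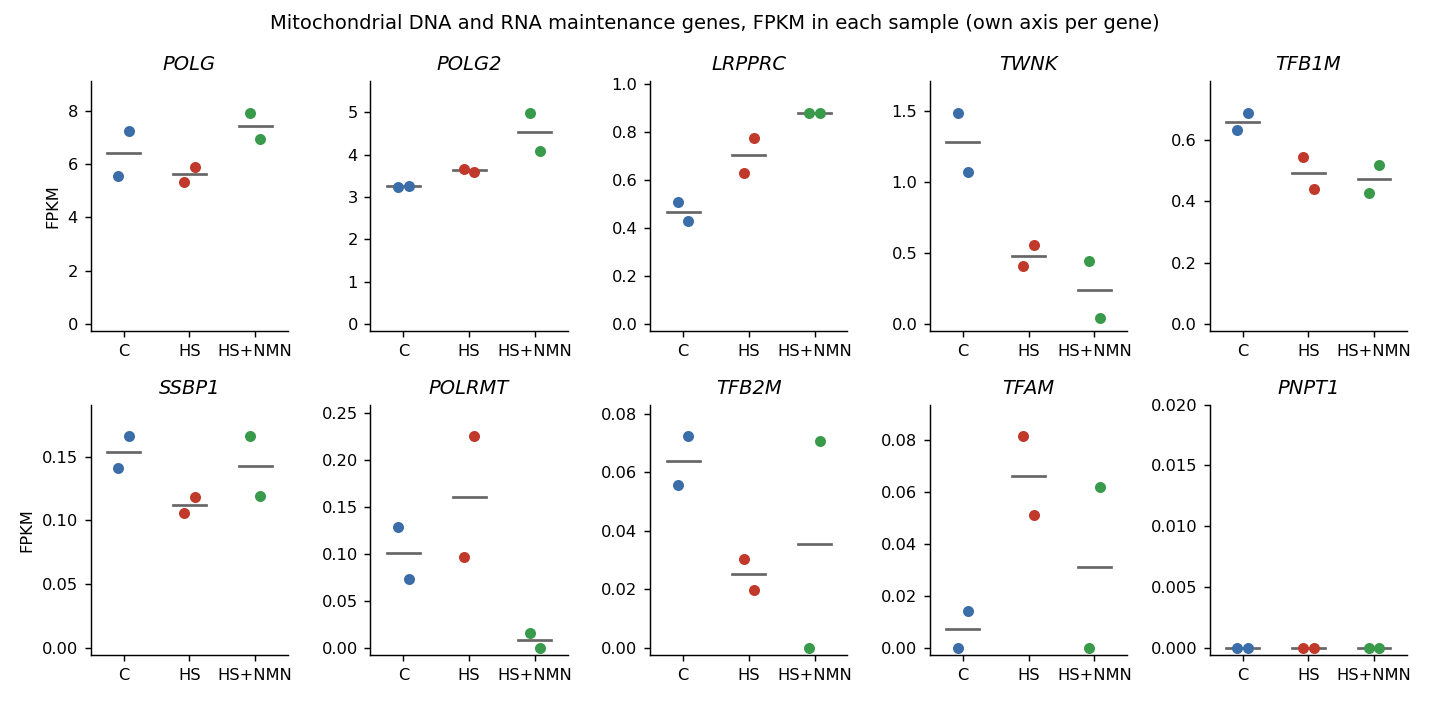
FPKM of each of the 10 genes (vertical axis, a scale of its own for each gene, starting at 0) in controls (C), under heat stress (HS) and under heat stress with NMN (HS+NMN), where points are samples and bars are means of 2 samples. POLG lies between 5.32 and 7.92 FPKM in all samples, TWNK falls from 1.07 FPKM or more in control to 0.555 or less in the other groups, and PNPT1 is at 0 throughout.

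How many fragments lie behind each value was estimated from the spacing of the lowest FPKM values, which gave between 7570000 and 12000000 fragments per sample. Only 11.7% of the low values came out within 0.05 of a whole number, against 10% if they were spread evenly. This check does not establish the scale, so the estimated fragments are rough numbers for setting genes and samples side by side, and no counts. A further scaling of the values between samples would also shift them. POLG rested on an estimated 165 to 395 fragments per sample, POLG2 on 47.9 to 79.3 and LRPPRC on 29.6 to 49.8. TFB1M rested on 3.10 to 25.2 and SSBP1 on 0.485 to 7.21, depending on the transcript taken as its length. TFAM and TFB2M stayed below 2 estimated fragments in every sample, with highest values of 0.920 and 1.68. POLRMT reached up to 8.83 estimated fragments. TFAM, TFB2M and POLRMT were tested only in a fit with no minimum level, and PNPT1, at 0 throughout, in none.

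**Figure D2:**
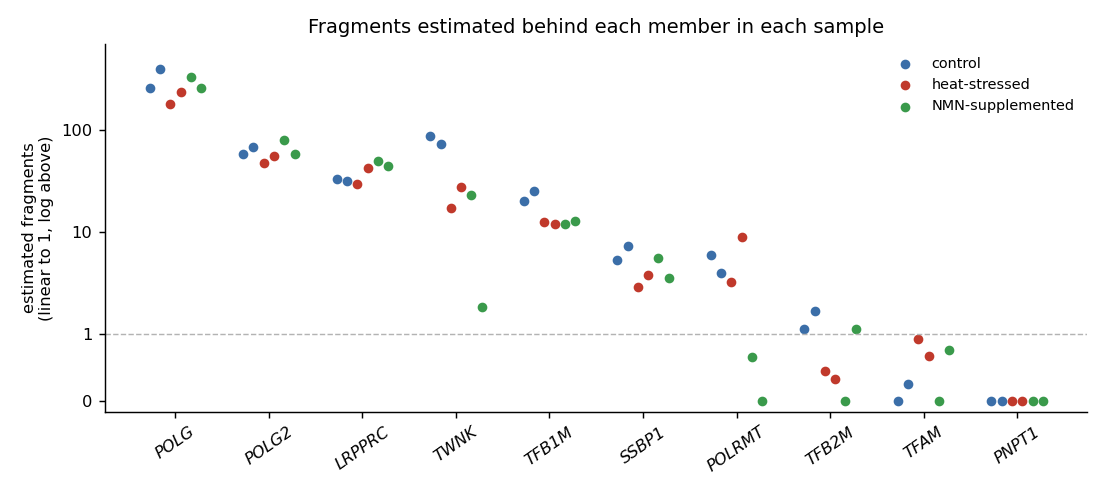
Estimated fragments behind each gene in each of the 6 samples (vertical axis linear up to 1 and logarithmic above), computed with the longest annotated transcript of each gene and coloured by group. POLG rests on at least 182 fragments in every sample, POLG2 on 47.9 to 79.3, and the genes from TFB2M to the right on fewer than 2.

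POLG, the catalytic subunit of the mitochondrial DNA polymerase, lies on the minus strand of chr7:54889150-54907167 with 23 annotated exons. Its FPKM was 5.56 and 7.25 in controls, 5.32 and 5.89 under heat stress and 7.92 and 6.92 with NMN. Both NMN-supplemented samples were above both heat-stressed samples, whereas the control samples overlapped with each of the other groups. The log2 fold change of POLG on the log2(FPKM + 1) scale was -0.16 ± 0.16 (SE, n = 2 per group) in heat-stressed against control oocytes (limma, unadjusted P = 0.358, adjusted P = 0.572). It was 0.35 ± 0.16 in NMN-supplemented against heat-stressed oocytes (limma, unadjusted P = 0.0691, adjusted P = 0.383). Without either heat-stressed sample that P was 0.219 and 0.101, and without either NMN-supplemented sample 0.265 and 0.0944. It fell under 0.05 without either control sample (0.043 and 0.0429) and with only the compared groups in the fit (0.0414). A stretch of 432 exonic bases of POLG is shared with FANCI, a DNA repair gene on the other strand that was at 0.307 to 0.666 FPKM.

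POLG2, the accessory subunit that helps the polymerase hold on to DNA, lies on the plus strand of chr12:14582075-14601576. It had 3.24 and 3.27 FPKM in controls, 3.65 and 3.60 under heat stress and 4.99 and 4.08 with NMN. The samples of the 3 groups did not overlap, with control lowest and NMN-supplemented oocytes highest. POLG2 was higher in NMN-supplemented than in control oocytes, with a log2 fold change of 0.38 ± 0.13 (SE, 95% interval 0.06 to 0.69) at an unadjusted P of 0.0268, but did not pass the adjusted threshold (limma, adjusted P = 0.0826). The unadjusted P of POLG2 rose to 0.0766 without control replicate 1, 0.0715 without control replicate 2 and 0.169 without NMN-supplemented replicate 1. The log2 fold changes of its other comparisons were 0.12 ± 0.13 for heat-stressed against control (limma, unadjusted P = 0.380, adjusted P = 0.592) and 0.26 ± 0.13 for NMN-supplemented against heat-stressed oocytes (limma, unadjusted P = 0.0920, adjusted P = 0.390). The ratio of POLG to POLG2 FPKM was 1.71 and 2.22 in controls, 1.46 and 1.64 under heat stress and 1.59 and 1.70 with NMN. Both control samples were thus above the other samples in this ratio, but only by a near tie. Control replicate 1, at 1.71, was almost level with NMN-supplemented replicate 2 at 1.70, and heat-stressed replicate 2 followed at 1.64.

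TWNK, the replicative helicase, lies on the plus strand of chr14:112068463-112076169 with 5 exons. Its FPKM was 1.49 and 1.07 in controls, 0.407 and 0.555 under heat stress and 0.444 and 0.0398 with NMN. The control samples were above all others, and NMN-supplemented replicate 2 was the lowest sample, at 1.83 estimated fragments against 86.9 and 72.5 in control. On the log2(FPKM + 1) scale TWNK was lower in heat-stressed than in control oocytes by an unadjusted test, with a log2 fold change of -0.62 ± 0.20 (SE, 95% interval -1.12 to -0.12; limma, unadjusted P = 0.0249, adjusted P = 0.263). This call was lost without control replicate 1 (unadjusted P = 0.127), heat-stressed replicate 1 (unadjusted P = 0.114) or heat-stressed replicate 2 (unadjusted P = 0.065), and with a pseudocount of 0.1 FPKM (unadjusted P = 0.121). In NMN-supplemented against control oocytes the log2 fold change was -0.89 ± 0.20 (SE, limma, unadjusted P = 0.00613, adjusted P = 0.0728), and the unadjusted P stayed under 0.05 in all 15 alternatives that could be fitted, between 0.00384 and 0.0434. Between NMN-supplemented and heat-stressed oocytes it was -0.27 ± 0.20 (SE, limma, unadjusted P = 0.224, adjusted P = 0.620), and it was -0.51 without NMN-supplemented replicate 1 (P of 0.0485) but -0.03 without NMN-supplemented replicate 2 (P of 0.857).

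All 1348 exonic bases of MRPL43, a protein of the mitochondrial ribosome encoded on the other strand, lie within the first exon of the TWNK model and make up 23.1% of its 5836 exonic bases. The libraries did not mark strand, so reads of both genes cannot be told apart there. MRPL43 was far more abundant, at 63.8 and 71.9 FPKM in controls, 74.1 and 54.0 under heat stress and 61.4 and 66.0 with NMN. Its log2 fold changes were -0.10 ± 0.18 for heat-stressed against control (SE, limma, unadjusted P = 0.608) and -0.09 ± 0.18 for NMN-supplemented against control (SE, limma, unadjusted P = 0.643). The part of MRPL43 reads in the TWNK values was not tested.

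**Figure D3:**
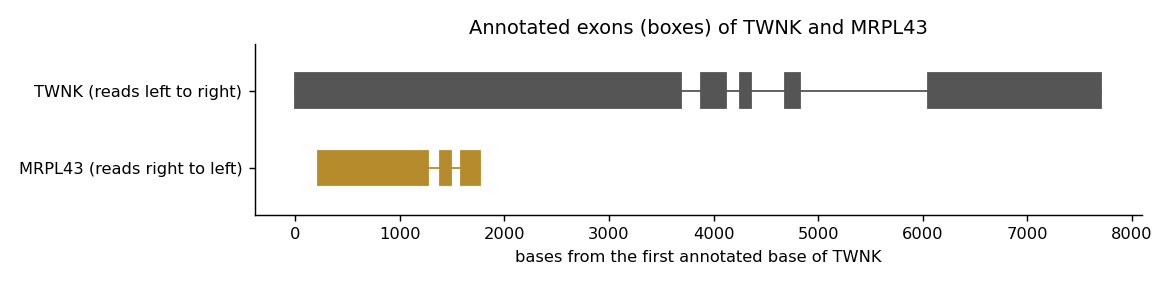
Annotated exons of TWNK and MRPL43 as boxes, joined by introns as lines, with the distance in bases from the first annotated base of TWNK on the horizontal axis. The 3 exons of MRPL43 lie inside the first exon of TWNK, which ends at 3686 bases.

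SSBP1, the protein that coats single-stranded mitochondrial DNA, lies on the minus strand of chromosome 18 from 8084292 to 8167983. Its listed locus holds 4 other genes. It was at 0.141 and 0.166 FPKM in controls, 0.106 and 0.118 under heat stress and 0.166 and 0.119 with NMN. Its heat-stressed samples were below all others, by a margin of 0.119 against 0.118 FPKM at the narrowest. The largest of its 3 log2 fold changes was -0.05 ± 0.05 (SE, 95% interval -0.19 to 0.08), for heat-stressed against control oocytes (limma, unadjusted P = 0.361, adjusted P = 0.655).

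The transcription genes POLRMT, TFB2M and TFAM all had means under 0.1 FPKM, unlike TFB1M. TFB1M, the methyltransferase of the small ribosomal RNA, lies on the plus strand of chr1:11566193-11650656 with 8 exons. Its FPKM was 0.631 and 0.689 in controls, 0.545 and 0.440 under heat stress and 0.427 and 0.518 with NMN. Both control samples were above all other samples, and the heat-stressed and NMN-supplemented samples overlapped. The log2 fold change of TFB1M was -0.15 ± 0.09 (SE, limma, unadjusted P = 0.147, adjusted P = 0.467) in heat-stressed and -0.17 ± 0.09 (SE, limma, unadjusted P = 0.112, adjusted P = 0.281) in NMN-supplemented oocytes, both against control. TFB1M shares 1110 of its exonic bases, 32.7%, with TIAM2 on the other strand, which was at 0.102 to 0.230 FPKM. CLDN20, inside the same locus, was at 3.93 to 12.1 FPKM without sharing exonic bases.

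POLRMT, the RNA polymerase itself, lies on the plus strand of chr2:77694271-77708099 with 16 exons. It was listed at 0.128 and 0.0736 FPKM in controls, 0.0969 and 0.225 under heat stress and 0.0160 and 0 with NMN. Both NMN-supplemented samples were below the other 4, which rested on between 2.54 and 8.83 estimated fragments each. In the fit with no minimum its log2 fold change in NMN-supplemented against heat-stressed oocytes was -0.20 ± 0.06 (SE, limma, unadjusted P = 0.0275, adjusted P = 0.612), and it was not called in the other comparisons (limma, adjusted P = 0.657 and 0.402). TFB2M, the promoter-opening factor on the minus strand of chr10:19028813-19046343, was at 0.0557 and 0.0723 FPKM in controls, 0.0305 and 0.0197 under heat stress and 0 and 0.0707 with NMN. Its start lies 41 bases from that of CNST on the other strand. TFAM, on the minus strand of chr14:92261713-92279731 with 7 exons, was at 0 and 0.0141 FPKM in controls, 0.0815 and 0.0510 under heat stress and 0 and 0.0619 with NMN. TFAM was above 0 in 4 samples only and never above 0.0815 FPKM. At such low values no order of its groups was read. The rough estimate put even its values above 0 below 1 fragment, which shows the limit of that estimate. Neither TFB2M nor TFAM was called in the fit with no minimum (limma, lowest adjusted P = 0.612 and 0.470).

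Among the RNA genes, LRPPRC, the stabilizer of mitochondrial messenger RNAs, lies on the plus strand of chr3:96474510-96590706 with 38 exons and shares no exonic base with another gene. Its FPKM was 0.508 and 0.428 in controls, 0.632 and 0.776 under heat stress and 0.879 and 0.882 with NMN. The samples of the 3 groups did not overlap, in the same order as for POLG2. The mean of LRPPRC was 0.468 ± 0.0566 FPKM (SD, n = 2) in control and 0.881 ± 0.00214 FPKM (SD, n = 2) in NMN-supplemented oocytes, a ratio of means of 1.88. On the log2(FPKM + 1) scale this was a log2 fold change of 0.36 ± 0.09 (SE, 95% interval 0.11 to 0.60; limma, unadjusted P = 0.0129, adjusted P = 0.0939). The unadjusted P rose to 0.06 without control replicate 2, 0.0545 without NMN-supplemented replicate 1 and 0.0568 without NMN-supplemented replicate 2. The log2 fold change of LRPPRC was 0.21 ± 0.09 in heat-stressed against control (SE, limma, unadjusted P = 0.0725, adjusted P = 0.353) and 0.14 ± 0.09 in NMN-supplemented against heat-stressed oocytes (SE, limma, unadjusted P = 0.189, adjusted P = 0.599). Against control the heat-stressed value had an unadjusted P under 0.05 in 4 of 15 alternatives. The lowest was 0.0417, with quantile normalization (limma). PNPT1, the exoribonuclease gene on the plus strand of chr3:85595356-85639665 with 28 exons, was listed at 0 in every sample. Its listed locus holds 4 other genes, among them CCDC85A at 1.11 to 1.68 FPKM.

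Counted together, no member passed an adjusted P of 0.05 in any comparison, for heat-stressed against control, NMN-supplemented against heat-stressed or NMN-supplemented against control oocytes (limma). In the same order 0, 0 and 1015 of all 4713 genes did so in the fit that holds POLG and POLG2, and 0, 0 and 86 of 11651 in the fit from which LRPPRC, TWNK, TFB1M and SSBP1 were taken. Of the 2 members with a mean of at least 1 FPKM, 0 had an unadjusted P under 0.05 in heat-stressed against control oocytes, where 22.8% of all genes tested did. The count was again 0 in NMN-supplemented against heat-stressed oocytes, beside 13.6% of all genes. It was 1, POLG2, in NMN-supplemented against control oocytes, beside 41.3% of all genes. Of the 6 members with a mean of at least 0.1 FPKM, 1 (TWNK), 0 and 3 (TWNK, POLG2 and LRPPRC) had an unadjusted P under 0.05 in the same order, beside 16.0%, 9.96% and 27.8% of all genes at that level. Of the 9 members above 0 in any sample, 1 (TWNK), 1 (POLRMT) and 3 (TWNK, POLG2 and LRPPRC) were called in the fit with no minimum, beside 11.6%, 7.58% and 18.0% of all genes.

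The groups did not overlap for 5 of these 6 members between heat-stressed and control oocytes, beside 47.1% of all genes with a mean of at least 0.1 FPKM, with POLG2 and LRPPRC higher and TWNK, TFB1M and SSBP1 lower under heat stress. Between NMN-supplemented and heat-stressed oocytes they did not overlap for 4, beside 44.8%, and POLG, POLG2, SSBP1 and LRPPRC were all higher with NMN. Between NMN-supplemented and control oocytes they did not overlap for 4, beside 60.6%, with POLG2 and LRPPRC higher and TWNK and TFB1M lower. The 3 comparisons share samples, so these counts are not independent of each other. For any 1 gene, the smallest P that an exact two-sided permutation test can give here is 0.333.

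**Figure D4:**
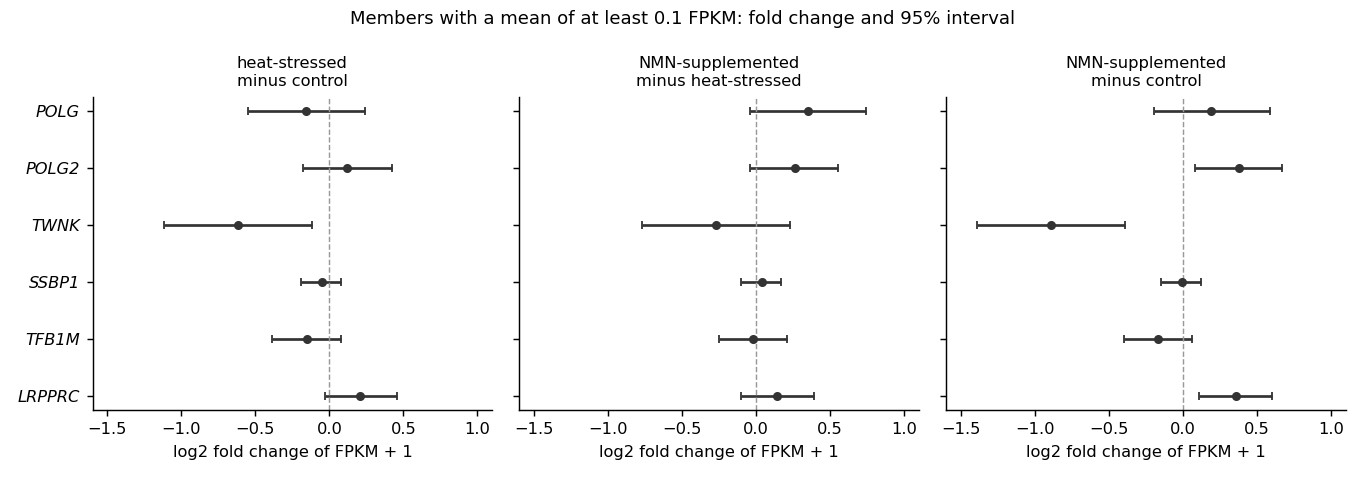
Log2 fold changes of FPKM + 1 (points) with 95% intervals (bars) of the 6 members with a mean of at least 0.1 FPKM, from the limma fit over 11651 genes, in the 3 comparisons. The intervals of TWNK lie below 0 in both comparisons with control, those of POLG2 and LRPPRC lie above 0 in NMN-supplemented minus control, and all others cross 0.

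The other genes of these pathways were described from lists of known components. Of the 20 listed genes of mitochondrial DNA replication and repair, 8 had a mean of at least 1 FPKM, and their median log2 fold change was -0.12, -0.13 and -0.29 in heat-stressed against control, NMN-supplemented against heat-stressed and NMN-supplemented against control oocytes. The medians of all genes tested were 0.05, 0.08 and 0.11. In these comparisons 0, 0 and 1 of the 8 were higher and 1, 1 and 1 lower at an unadjusted P under 0.05. In all these are 12.5%, 12.5% and 25% of the 8 tested, beside 22.8%, 13.6% and 41.3% of all genes tested. LIG3, the DNA ligase that seals nicks in mitochondrial DNA, was the lower one each time, at 3.61 and 3.67 FPKM in controls, 2.26 and 2.58 under heat stress and 1.30 and 1.57 with NMN. Its samples did not overlap between any of the groups, in a descending order opposite to that of POLG2. LIG3 fell by 0.93 ± 0.12 on the log2 scale in NMN-supplemented against control oocytes (SE, limma, adjusted P = 0.0210), whereas the falls of 0.44 against control and 0.49 against heat-stressed oocytes did not pass the adjusted test (limma, adjusted P = 0.147 and 0.268). The one higher gene was PRIMPOL, a primase that restarts stalled replication, with 1.70 and 1.35 FPKM in control and 2.30 and 2.24 in NMN-supplemented oocytes (limma, unadjusted P = 0.0356, adjusted P = 0.0971), and this call was lost without control replicate 2 or either NMN-supplemented sample (P of 0.145, 0.124 and 0.105) and with the replicate number as a block (P of 0.0622). The 2 smaller falls of LIG3 lost their unadjusted call without heat-stressed replicate 1 (P of 0.0622) and NMN-supplemented replicate 1 (P of 0.0608).

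Of 17 genes of nucleotide supply, 6 were tested, of which 1, 1 and 1 were higher and 1, 0 and 1 lower in the same order of comparisons. In all these are 33.3%, 16.7% and 33.3% of those tested, beside 22.8%, 13.6% and 41.3% of all genes tested. RRM2B, the subunit of ribonucleotide reductase that makes DNA precursors outside S phase, had 16.7 and 14.2 FPKM in controls, 21.1 and 21.8 under heat stress and 30.3 and 28.4 with NMN. Its samples did not overlap between the groups, in the order of POLG2, and its log2 fold change in NMN-supplemented against control oocytes was 0.89 ± 0.12 (SE, limma, adjusted P = 0.0210). The 2 steps were 0.45 (limma, unadjusted P = 0.0114, adjusted P = 0.142) and 0.43 (limma, unadjusted P = 0.0133, adjusted P = 0.3), of which the first lost its unadjusted call without heat-stressed replicate 2 (P of 0.0507) and the second without heat-stressed or NMN-supplemented replicate 1 (P of 0.0572 and 0.0778). DUT, which removes dUTP before it can enter DNA, had 2.99 and 3.38 FPKM in controls, 1.41 and 1.78 under heat stress and 1.29 and 1.44 with NMN. DUT was lower than in control in both other groups, with log2 fold changes of -0.69 ± 0.13 (SE, limma, unadjusted P = 0.00253, adjusted P = 0.118) under heat stress and -0.82 ± 0.13 with NMN (SE, limma, adjusted P = 0.0224), in a listed locus that holds 6 other genes.

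Besides POLRMT and the factors described above, the list of mitochondrial transcription held 6 genes, of which 3 were tested. None was called in heat-stressed or NMN-supplemented oocytes against control at an unadjusted P under 0.05. In NMN-supplemented against heat-stressed oocytes 1 was called, 33.3% of those tested, beside 13.6% of all genes tested. This gene, MTERF2, had a mean of 1.01 FPKM over the 6 samples, just above the minimum of 1. Its group means were 0.917 FPKM in control, 1.68 in heat-stressed and 0.441 in NMN-supplemented oocytes. It thus passed the minimum only through the heat-stressed group, where it was highest, so its call is not independent of that minimum. MTERF2, a factor that binds mitochondrial DNA, was lower in NMN-supplemented than in heat-stressed oocytes, at 0.882 and 0 against 1.48 and 1.89 FPKM (limma, unadjusted P = 0.0217, adjusted P = 0.340), and this call was lost without heat-stressed replicate 2 (unadjusted P = 0.0876) and with a pseudocount of 0.1 FPKM (unadjusted P = 0.06).

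Of 24 genes of RNA processing and decay, 11 were tested, and 1, 1 and 3 were higher and 0, 2 and 2 lower in the same order. In all these are 9.09%, 27.3% and 45.5% of the 11 tested, beside the same 22.8%, 13.6% and 41.3% of all genes. GRSF1, which organizes the granules where mitochondrial RNA is processed, had 7.37 and 7.60 FPKM in controls, 12.6 and 10.9 under heat stress and 14.1 and 13.4 with NMN. It was higher in both heated groups than in control, with log2 fold changes of 0.59 ± 0.12 (SE, limma, unadjusted P = 0.00296, adjusted P = 0.118) and 0.80 ± 0.12 (SE, limma, adjusted P = 0.0210). DDX28, an RNA helicase of the same granules, had 10.3 and 7.14 FPKM in controls, 2.89 and 6.44 under heat stress and 1.92 and 0.903 with NMN. DDX28 fell by 2.02 ± 0.38 on the log2 scale in NMN-supplemented against control oocytes (SE, limma, adjusted P = 0.0273). Its listed locus holds 1 other gene, as does that of TRMT10C. TRMT10C, a subunit of the ribonuclease that trims transfer RNA ends, fell by 0.92 ± 0.22 in the same comparison (SE, limma, adjusted P = 0.0404), from 3.90 and 4.37 to 1.61 and 1.82 FPKM. DHX30, another RNA helicase, was higher in NMN-supplemented than in heat-stressed oocytes at 2.68 and 2.84 against 1.74 and 1.98 FPKM (limma, unadjusted P = 0.0217, adjusted P = 0.340), a call lost without heat-stressed replicate 1 or either NMN-supplemented sample (P of 0.0922, 0.0676 and 0.103).

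Of 24 genes of RNA modification, 5 were tested, of which 1 was lower under heat stress and 1 higher in NMN-supplemented than in control oocytes. Each is 20% of those tested, beside 22.8% and 41.3% of all genes tested. The first was RPUSD3, a pseudouridine synthase. It had 1.86 and 0.843 FPKM in control and 0.516 and 0.489 in heat-stressed oocytes (limma, unadjusted P = 0.0381, adjusted P = 0.203). With a minimum of 0.1 FPKM and with none, its unadjusted P was 0.042 and 0.049 (limma). The rounded mean of RPUSD3 over the 6 samples was 1 FPKM, right at the minimum of 1. Its group mean was highest in control, at 1.35 FPKM, and lowest under heat stress, at 0.503. RPUSD3 thus reached the minimum with control as its highest group, so its call is not independent of that minimum. That call was lost when any 1 of 5 samples was left out, all but control replicate 2. TRMT5, which methylates transfer RNA, was higher in NMN-supplemented than in control oocytes, at 16.8 and 13.7 against 10.2 and 9.94 FPKM (limma, adjusted P = 0.0427), and its unadjusted P was 0.0513 without NMN-supplemented replicate 1. Of 16 nuclear regulators of mitochondrial biogenesis, 3 were tested, and the same 2 were higher in heat-stressed and in NMN-supplemented than in control oocytes. These are 66.7% of the 3 in both comparisons, beside 22.8% and 41.3% of all genes tested. GABPA, the DNA-binding subunit of GABP, had 2.06 and 1.92 FPKM in controls, 3.17 and 3.26 under heat stress and 3.69 and 2.50 with NMN (limma, unadjusted P = 0.0267 and 0.0419 against control, adjusted P = 0.184 and 0.108). SIRT1, an NAD+-dependent deacetylase, had 1.92 and 1.86, 2.69 and 2.84, and 2.36 and 2.75 FPKM in that order of groups (limma, unadjusted P = 0.0191 and 0.0472 against control, adjusted P = 0.167 and 0.116). Leaving out control replicate 2 ended the calls of GABPA and SIRT1 in both comparisons, with P between 0.0612 and 0.134, and the call of SIRT1 with NMN was lost without any 1 of the 6 samples. Under heat stress GABPA also lost its call without control replicate 1 or either heat-stressed sample (P from 0.0682 to 0.0838) and SIRT1 without heat-stressed replicate 2 (P of 0.073), and with NMN GABPA kept it only without NMN-supplemented replicate 2.

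**Figure D5:**
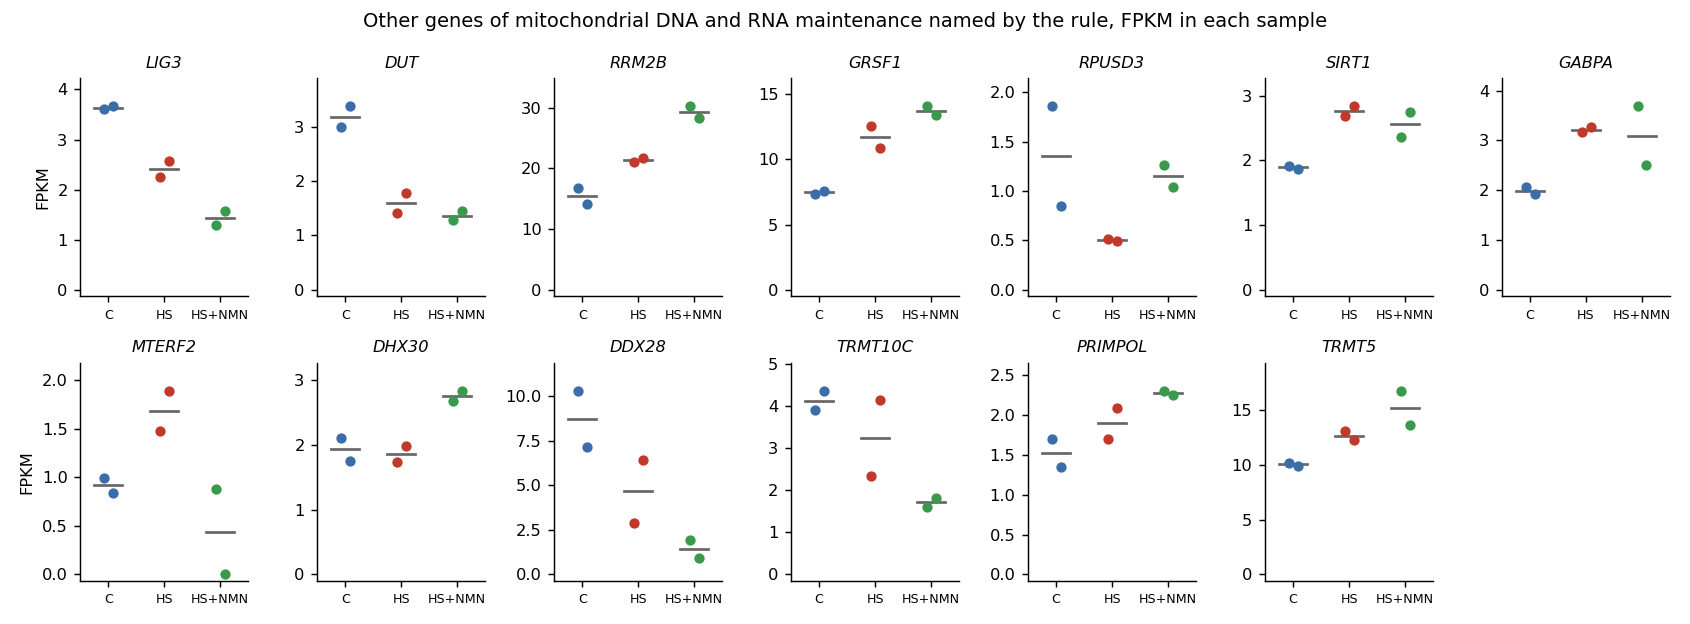
FPKM (vertical axes, one scale per gene, starting at 0) of the 13 other pathway genes with the smallest P under 0.05 in their list, in controls (C), under heat stress (HS) and under heat stress with NMN (HS+NMN), with points for samples and bars for means of 2 samples. LIG3, DUT and DDX28 are highest in control, and RRM2B and GRSF1 are lowest there.

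The 13 messenger RNAs that mitochondria encode were measured in the same samples, and they are the molecules on which several of the members act. Their summed FPKM was 118545 and 101184 in controls, 181012 and 146009 under heat stress and 177399 and 175976 with NMN. All samples of the other groups were above both control samples. At an unadjusted P under 0.05, 9 of the 13 were higher in heat-stressed than in control oocytes, 2 in NMN-supplemented than in heat-stressed and 11 in NMN-supplemented than in control oocytes, and 0 were lower. These are 69.2%, 15.4% and 84.6% of the 13, beside 22.8%, 13.6% and 41.3% of all genes tested. All 13 are encoded by the same small genome, so they do not count as independent genes. In the same order 0, 0 and 8 of them passed an adjusted P of 0.05 (limma), beside 0, 0 and 1015 of all 4713 genes. Mitochondrially encoded messenger RNAs took between 61.7% and 74.7% of the summed FPKM of a sample, and their part in the lower or higher values of the nuclear genes was not tested. RNA of mitochondria does not measure the amount of mitochondrial DNA.

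The markers of oocytes had summed FPKM of 3310 to 3500 in control, 3210 to 3230 in heat-stressed and 2780 to 3010 in NMN-supplemented oocytes, and of the 11 with a mean of at least 1 FPKM, 4, 1 and 6 were lower in the 3 comparisons at an unadjusted P under 0.05 and 0 higher. These are 36.4%, 9.09% and 54.5% of the tested markers, beside 22.8%, 13.6% and 41.3% of all genes. The sum over 19 markers of cumulus and granulosa cells was 3.57 to 4.35 FPKM in control, 4.92 to 5.65 in heat-stressed and 5.58 to 5.71 in NMN-supplemented oocytes. Of these markers AMH, AMHR2 and INHA were at 0 in all samples and FSHR and CYP11A1 had means of 0.0924 and 0.0827 FPKM, while GREM1 was highest at 2.91 FPKM. GREM1 carried the order of this sum, and the other 18 markers summed to 1.87 and 1.84 FPKM in controls, 1.65 and 2.79 under heat stress and 2.13 and 2.03 with NMN, where heat-stressed replicate 1 was below both controls. The part of cumulus cell RNA in the values of POLG2 and LRPPRC was not tested.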

How the data were processed

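RNA-seq of 6 samples of porcine oocytes (2 control, 2 heat-stressed and 2 NMN-supplemented, grouped by their treatment labels) was used. According to the methods, the authors trimmed paired-end reads with cutadapt and aligned them to Sscrofa11.1 (susScr11) with tophat2, and the submitters' processing notes name Cufflinks 2.2.1, Cuffnorm and Cuffdiff. The authors deposited FPKM per gene and sample, and read counts were not used here. The columns of the authors' own comparisons (fold changes, P-values and q-values) and 2 lists of differentially expressed genes were not used.

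FPKM were transformed as log2(FPKM + 1), genes with a mean of at least 1 FPKM were kept (4713), and a single linear model with the 3 groups as terms was fitted across the 6 samples (limma 3.58.1, R 4.3.3), with moderation trended on mean expression, two-sided tests and Benjamini-Hochberg adjustment. Members with a mean between 0.1 and 1 FPKM were taken from the same fit on 11651 genes, a choice made after seeing their levels, and those below 0.1 from the fit with no minimum. A gene was called higher or lower at an unadjusted P under 0.05, and adjusted values are given beside it. Percentages of called genes are over all genes of the same fit. The model was run on simulated data before use.

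The members and the gene lists were chosen with earlier results of these data known. The genes named were all members and, from each pathway list, the 3 genes with the smallest unadjusted P under 0.05 in each comparison. Of the marker lists and mitochondrially encoded genes, sums and the genes at 0 or highest are given, and FSHR and CYP11A1 as defining markers. Neighbours of members were named for shared exonic bases, a shared locus or a nearby start, but not every gene of a shared locus was named. The listed locus of MTERF2 holds 4 other genes, none of which was named. Those of DDX28, TRMT10C, GABPA and PRIMPOL hold 1 other gene each, and that of SIRT1 holds 2. Shared exonic bases were examined for the members only. ATAD3A, TYMP, OOSP2 and HAS2 were not matched to a row.

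Gene models, overlaps and upstream windows were read from the RefSeq annotation and genome of Sscrofa11.1. Depth was estimated from the steps between low FPKM values, with 225 bases taken off each transcript length. All remaining steps were run in Python 3.11.15 (pandas 2.3.3, numpy 2.4.6, matplotlib 3.10.9). Alternatives were other pseudocounts, minimum levels, normalizations, a replicate block, only the compared groups, no trend, a fold threshold and leaving out each sample in turn.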

Additional observations from a re-analysis of the deposited data

How the results depend on the processing

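The number of members called at an unadjusted P under 0.05 was 0, 0 and 1 in heat-stressed against control, NMN-supplemented against heat-stressed and NMN-supplemented against control oocytes. In the first comparison it became 1 with a minimum of 0.1 FPKM or with no minimum, where TWNK enters the fit. In the second it became 1 with no minimum (POLRMT) and with only the compared groups (POLG), and ranged from 0 to 1 with a sample left out. In the third it became 3 with a minimum of 0.1 FPKM or none, and 0 with a minimum of 5 FPKM, with scaling to the same nuclear FPKM sum and with an absolute log2 fold change over 1, and ranged from 0 to 1 with a sample left out. Of 279 alternative values of single members, 247 kept direction and side of the threshold, 8 passed it, 12 lost it and 12 changed sign.

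Scaling to the same nuclear FPKM sum follows LOC100513953, which takes 13.9% of the FPKM sum of heat-stressed replicate 1. It moved the median log2 fold change of all genes from 0.05 to -0.22, from 0.08 to 0.35 and from 0.11 to 0.13, and the calls over all genes from 1074, 641 and 1948 to 561, 271 and 788. It also ended unadjusted calls, without a change of direction. Under heat stress against control these were RRM2B (0.45 to 0.10), GRSF1 (0.59 to 0.25), SIRT1 (0.38 to 0.14), GABPA (0.50 to 0.24) and LIG3 (-0.44 to -0.69). In NMN-supplemented against heat-stressed oocytes they were LIG3 (-0.49 to -0.26), TRMT10C (-0.62 to -0.38), RRM2B (0.43 to 0.80) and DHX30 (0.40 to 0.63). In NMN-supplemented against control oocytes they were POLG2 (0.38 to 0.40), LRPPRC (0.36 to 0.38), PRIMPOL, TRMT5, GABPA, SIRT1 and GRSF1. The share of higher genes among all calls went from 55.7%, 52.6% and 62.0% to 6.06%, 67.9% and 35.4%. Without LOC100513953 in the sum, an alternative chosen after seeing the data, the shares were 40.6%, 49.4% and 59.8%. In NMN-supplemented against heat-stressed oocytes the share of higher genes was 41.3% after quantile normalization. In the fit on 11651 genes the shares were 43.9%, 43.4% and 47.7%, and 62.6%, 72.8% and 70.2% with scaling to the same median.

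Changes of sign were all in values that did not pass the threshold. TFB1M in NMN-supplemented against heat-stressed oocytes went to 0.04 with quantile normalization, 0.03 with the median, 0.10 with the nuclear sum, 0.00 with that sum without LOC100513953, and ranged from -0.07 to 0.03 with a sample left out. SSBP1 in NMN-supplemented against control oocytes went to 0.05 with quantile normalization, 0.02 with the median, and ranged from -0.04 to 0.02 with a sample left out. In heat-stressed against control oocytes POLG ranged from -0.32 to 0.01 with a sample left out, with 0.01 without control replicate 2, and POLG2 went to -0.15 with the nuclear sum. The causes were not tested.

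With the replicate number as a block, 0, 0 and 1 members were called, and of the named pathway genes PRIMPOL and SIRT1 lost their calls with NMN against control (P of 0.0622 and 0.0745). Deviations of same-numbered samples correlated at -0.0320, -0.0139 and 0.00805 across genes. These values cannot tell whether same-numbered samples were collected or handled together. Over all genes the block gave 937, 527 and 1815 calls, with 40.8% higher in NMN-supplemented against heat-stressed oocytes. Of the genes with the fewest estimated fragments, TFAM and TFB2M stayed below 2 in every sample.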
